A study of Mus musculus with 2 samples.

Results

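The 8 genes described here encode the contents of cytotoxic granules and the proteins that accompany them. They are the granzymes Gzma, Gzmb and Gzmk, the pore-forming protein perforin (Prf1), the granule proteins Nkg7, Ctsw and Srgn, and the granzyme inhibitor Serpinb9. They were chosen by symbol, and all 8 had a row among the 19294 genes of the deposited table. The table counted unique molecular identifiers (UMIs, 1 for each captured RNA molecule) in 1117 cell barcodes from a Drop-seq experiment on cells isolated from mouse colon. The animals were C57BL/6, heterozygous for a GfpCre insertion at Tcf4 and for a Cre reporter (Tcf4 GfpCre/+, RosamTmG/+), 4 to 10 months old, and had received no pretreatment. Every cell therefore carried the heterozygous Tcf4 allele, and no group without it is analysed here. Cre was made from the Tcf4 locus, so the reporter marks cells that express Tcf4 and their descendants. The cells came from sorted fractions named Tcf4 Lin- and Tcf4 DP, pooled as samples 1 to 3 and 4 to 6, and were mixed with human cells before droplet capture. The barcodes fall into sets X1 and X2, which could not be matched here to a pool or a sort, so the table was treated as 1 sample and no test between groups of animals was possible.

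The authors placed 516 barcodes in 4 clusters: 190 natural intraepithelial lymphocytes (nIELs), 186 induced intraepithelial lymphocytes (iIELs), 93 epithelial cells positive for Pigr and 47 B cells. A separate list divided epithelial cells into 32 stem cells, 32 secretory precursors and 42 absorptive precursors. Assigned cells held 504 to 23205 UMIs, with a median of 1126. The clusters were called on the expression of these same cells, and the paper showed Gzma and Gzmb among its markers of iIELs. Differences between clusters are therefore given as descriptions. Levels are a gene's UMIs in 1000000 UMIs of the cluster (CPM), with exact 95% Poisson intervals. Shares of cells have exact 95% Clopper-Pearson intervals, and folds have exact binomial ones. All of these cover counting error only, not the spread between animals, and they treat the UMIs of a cell as independent, so they are too narrow for a gene whose UMIs sit in few cells.

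Cytotoxic lymphocytes store granzymes, which are serine proteases, in secretory granules together with perforin. On contact with a target cell the granules are released, perforin opens the target membrane and granzymes enter and cleave their substrates. Serglycin (Srgn) is the proteoglycan on which granzymes are packed, and Serpinb9 protects the cytosol of the killer cell from its own granzyme B. Intraepithelial lymphocytes lie between the cells of the gut lining and are known for a partly armed cytotoxic state.

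In GENCODE M21 (GRCm38), Gzma lies on the minus strand of chromosome 13, from 113093825 to 113100981, and Gzmk on the same strand from 113171608 to 113225908, 70.6 kb away. Gzmb lies on the minus strand of chromosome 14 from 56258838 to 56262260, at the edge of a granzyme cluster in which Gzmc is 24.2 kb away. The sequences below show the 250 bases upstream of the RefSeq start (GRCm38.p6) for these 3 genes, since Gzma and Gzmb were found in the same cells and Gzmk, the neighbour of Gzma, was not distributed as they were. The Gzmk stretch is intronic to a longer annotated transcript. Sequences are written 5′ to 3′ on the coding strand, and capitals mark matches on either strand to 5 motifs: the RUNX core TGTGGT, the AP-1 site TGANTCA, the T-box core GGTGTGA, the CRE core TGACGT and the TATA box TATAAA.
Gzma, chr13:113100982-113101231, minus strand: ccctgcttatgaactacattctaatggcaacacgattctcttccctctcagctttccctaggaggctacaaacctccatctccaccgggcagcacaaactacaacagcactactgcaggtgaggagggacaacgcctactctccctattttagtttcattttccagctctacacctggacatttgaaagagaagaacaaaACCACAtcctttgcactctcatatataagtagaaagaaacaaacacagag
Gzmb, chr14:56262335-56262584, minus strand: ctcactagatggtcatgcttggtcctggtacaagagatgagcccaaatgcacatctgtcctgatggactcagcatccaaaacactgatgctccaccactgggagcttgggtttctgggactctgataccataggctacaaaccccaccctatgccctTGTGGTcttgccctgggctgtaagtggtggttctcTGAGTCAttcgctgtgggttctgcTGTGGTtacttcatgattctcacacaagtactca
Gzmk, chr13:113180966-113181215, minus strand: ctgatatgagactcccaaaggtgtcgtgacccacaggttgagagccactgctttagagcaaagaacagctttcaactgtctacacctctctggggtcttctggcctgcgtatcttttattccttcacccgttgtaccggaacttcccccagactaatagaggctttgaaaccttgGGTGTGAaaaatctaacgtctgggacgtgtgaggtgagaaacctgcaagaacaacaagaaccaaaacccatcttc

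The Gzmb stretch held the RUNX core 2 times and the AP-1 site 1 time, with no overlap between them. The Gzma stretch held the RUNX core 1 time, on the opposite strand, 50 to 45 bases before the start. The Gzmk stretch held the T-box core 1 time and no RUNX core. Promoters were listed for 7 of the 8 genes, all but Ctsw. Prf1 and Nkg7 also matched the RUNX core, and Nkg7 matched the T-box core, while Serpinb9 matched none of the 5 motifs. Prf1 also matched the CRE core. Srgn has 2 listed starts, of which 1 matched the RUNX and CRE cores and 1 matched the TATA box. Across all 32851 promoters of the same length, 14.0% held the RUNX core, 6.75% the AP-1 site, 3.33% the T-box core, 6.47% the CRE core and 12.4% the TATA box. A match is a stretch of letters and not a measured site.

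One feature of the cluster list touches every comparison of the lymphocytes. Of the 376 cells listed as IELs, 14 were also listed in the epithelial subclusters, 11 of them labelled iIELs and 3 nIELs. Epcam, an epithelial adhesion protein, had a UMI in 13 of them, and Pigr, the antibody transporter of gut epithelium, in all 14. They held 101715 UMIs, and 4 of them held 19945 to 23205 UMIs each. In them the 3 CD3 genes had 3 UMIs in all, and the 8 granule genes had 1 UMI, of Srgn, against 3178 in all IELs. The 11 labelled iIELs supplied 34.8% of the UMIs of their cluster and so lowered the CPM of the granule genes there, while the 3 nIELs supplied 1.13%. Values are therefore given with all cells and also for the 175 iIELs and 187 nIELs listed only as IELs. In these, the 6 T cell markers (Cd3d, Cd3e, Cd3g, Cd8a, Cd8b1 and Trbc2) summed to 6810 CPM in iIELs and 5616 in nIELs, against 8.05 in the epithelial cluster, where 5 of the 6 were at 0. The 4 epithelial markers (Epcam, Krt8, Krt19 and Pigr) summed to 146 in iIELs and 58.3 in nIELs.

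Gzma, a granzyme with trypsin-like activity, was highest in iIELs. It had 837 UMIs in iIELs, 294 in nIELs, 83 in B cells and 1 in epithelial cells. These counts gave 2946 CPM (2750 to 3152) in iIELs, 1211 (1077 to 1358) in nIELs, 1082 (862 to 1341) in B cells and 4.03 (0.102 to 22.4) in epithelial cells. The intervals of nIELs and B cells overlapped, and those of iIELs and epithelial cells stood apart from all others. The level in iIELs was 2.43-fold that in nIELs (2.13 to 2.79), and 3.69-fold (3.23 to 4.23) without the 14 cells. A UMI of Gzma was present in 95 of 186 iIELs, or 51.1% (43.7 to 58.5), and in 23 of 190 nIELs, or 12.1% (7.83 to 17.6). In epithelial cells, which should lack the gene, the share was 1.08%, at a median depth of 1645 UMIs against 1038 in the cells listed only as IELs. With each cell thinned to 700 UMIs, which left out 33 iIELs and 33 nIELs below that depth, the shares were 48.3% and 13.1%.

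The cells that held Gzma held much of it. The 23 positive nIELs had a median of 10 UMIs each and a highest value of 39, and 6 of them carried at least 50% of the nIEL count. The 95 positive iIELs had a median of 6 UMIs and a highest value of 46, with at least 50% of the count in 18 cells. The nIEL level was thus a mixture of 167 cells with no UMI and 23 cells whose counts lay in the range of those of positive iIELs.

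**Figure D1:**
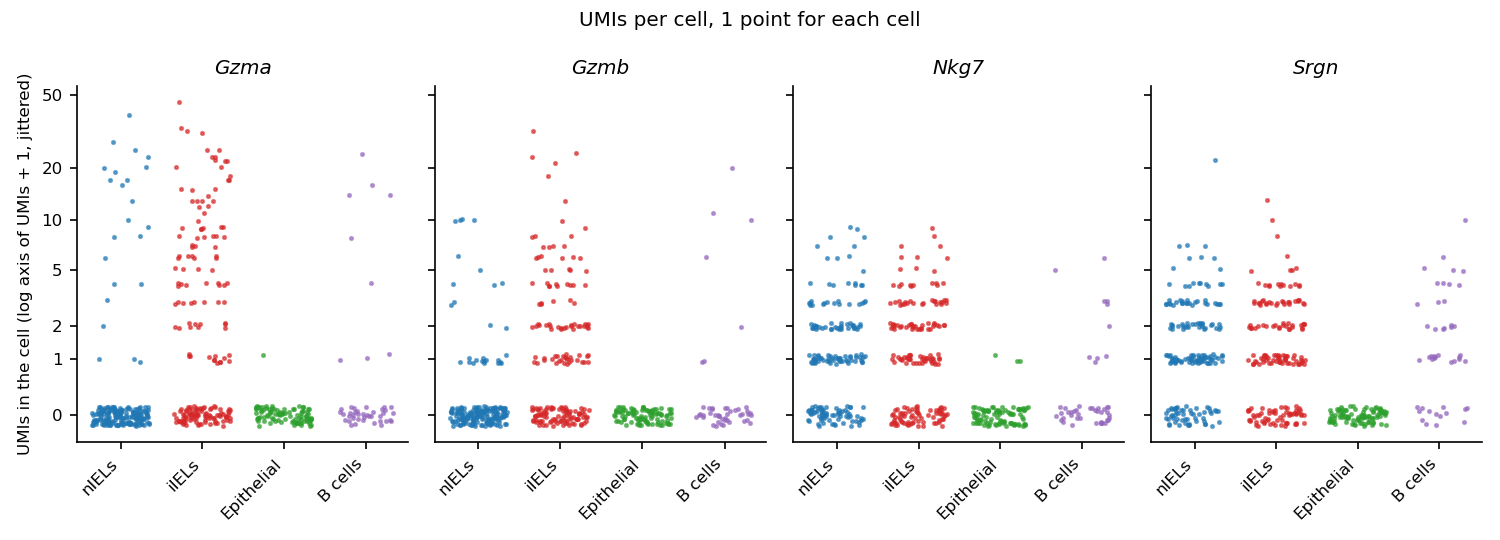
Each point is 1 cell, placed by its UMIs of Gzma, Gzmb, Nkg7 or Srgn on a log axis of UMIs + 1 and grouped by the authors' cluster. Gzma reached 39 UMIs in nIELs and 46 in iIELs with most nIELs at 0, while Nkg7 stayed at or below 9 UMIs in both and had a UMI in 121 of 190 nIELs and 115 of 186 iIELs.

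Gzmb, which cleaves its substrates after aspartate and sets off death of target cells, showed the same order at the top. Its 399 UMIs in iIELs gave 1404 CPM (1270 to 1549), its 88 in nIELs gave 362 (291 to 447) and its 51 in B cells gave 665 (495 to 874). None of the 93 epithelial cells had a UMI. The limit set for a count of 0 is 3 cells, or 3.23% of them (the exact upper limit is 3.89%), and it bounds cells with a UMI at this depth, not cells that express the gene. The B cell level was above that of nIELs with intervals that did not overlap, but the shares of cells with a UMI were 14.9% of B cells (7 cells) and 14.7% of nIELs, 2 B cells carried at least 50% of the 51 UMIs, and 49 of the 51 were in B cells that also had a CD3 UMI. The iIEL level was 3.87-fold that of nIELs (3.07 to 4.94), and 5.88-fold (4.66 to 7.49) without the 14 cells. The 14.7% of nIELs were 28 cells, against 51.1% of iIELs (95 cells). Positive nIELs had a median of 1 UMI, against 2 in positive iIELs, and 6 nIELs and 26 iIELs held 5 or more.

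Gzmk, a tryptase of early effector and memory CD8 T cells, was found mostly in iIELs among these clusters, with 52 UMIs in 40 iIELs, 2 UMIs in 2 nIELs, 5 UMIs in 4 B cells and none in epithelial cells. Its level was 183 CPM (137 to 240) in iIELs and 8.24 (0.998 to 29.8) in nIELs, a ratio of 22.2 (5.85 to 188), or 33.7 (8.87 to 286) without the 14 cells, that rests on the 2 nIEL UMIs. No cell held more than 2 UMIs, so that Gzmk lacked the heavily loaded cells seen for Gzma.

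Prf1, the pore-forming protein (chromosome 10, plus strand, 61297833 to 61304680), was sparse throughout. It had 16 UMIs in 12 iIELs and 8 UMIs in 8 nIELs, or 56.3 CPM (32.2 to 91.4) and 33.0 (14.2 to 64.9), and none in B cells or epithelial cells. The ratio of iIELs to nIELs was 1.71 (0.690 to 4.61), an interval that includes 1, and 2.59 (1.05 to 6.997) without the 14 cells. Among the 118 IELs with Gzma, 108 had no Prf1 UMI, which at this depth does not show that the cells lacked it.

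Nkg7, a granule membrane protein that takes part in degranulation (chromosome 7, plus strand, 43437073 to 43438249), was detected broadly and not in the on and off manner of Gzma. It had 276 UMIs in iIELs and 273 in nIELs, which gave 971 CPM (860 to 1093) and 1125 (995 to 1266), with overlapping intervals. B cells held 26 UMIs, or 339 CPM (221 to 497), and epithelial cells 3 UMIs. A UMI was found in 61.8% of iIELs and 63.7% of nIELs, against 3.23% of epithelial cells. The iIEL level was 0.864 of the nIEL level (0.728 to 1.02) with all cells and 1.31-fold (1.10 to 1.55) without the 14 cells, so its direction depended on them.

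Ctsw, a papain-like cathepsin of T and NK cells, was the member whose level was higher in nIELs both with and without the 14 cells. It lies on chromosome 19, minus strand, from 5465043 to 5468507. It had 203 UMIs in nIELs and 120 in iIELs, or 836 CPM (725 to 959) and 422 (350 to 505), and a UMI in 58.9% and 41.4% of cells. The nIEL level was 1.98-fold that of iIELs (1.57 to 2.502), and 1.31-fold (1.04 to 1.65) without the 14 cells. B cells held 15 UMIs and epithelial cells 2. Beside these levels, a list of mast cell markers, of which 4 of 6 had a row, summed to 121 CPM in nIELs and to 0 in iIELs listed only as IELs. Of the 29 nIEL UMIs in the sum, 22 were of Kit, in 19 cells, and Kit also had 9 UMIs in epithelial cells. Mcpt1 had 3 nIEL UMIs, in 1 cell, and Cpa3 and Mcpt2 had 2 each. The part of mast cell RNA in the nIEL values was not tested.

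Srgn, the proteoglycan core of the granule (chromosome 10, minus strand, 62493833 to 62527451), was detected in 72.1% of nIELs, 66.1% of iIELs and 70.2% of B cells. None of the 93 epithelial cells had a UMI, with the same limit on cells with a UMI as for Gzmb. The levels were 1273 CPM (1135 to 1423) in nIELs, 1095 (873 to 1356) in B cells and 1000 (887 to 1123) in iIELs, where the interval of B cells overlapped both others. With all cells nIELs were 1.27-fold above iIELs (1.08 to 1.501), and without the 14 cells iIELs were 1.19-fold above nIELs (1.01 to 1.40), a reversal. Serpinb9 (chromosome 13, plus strand, 33003250 to 33017957) had 11 UMIs in 10 iIELs, 6 in 6 nIELs, 1 in a B cell and none in epithelial cells, and its ratio of 1.57 had an interval from 0.531 to 5.16. Without the 14 cells the ratio was 2.38 (0.806 to 7.83), which still includes 1.

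**Figure D2:**
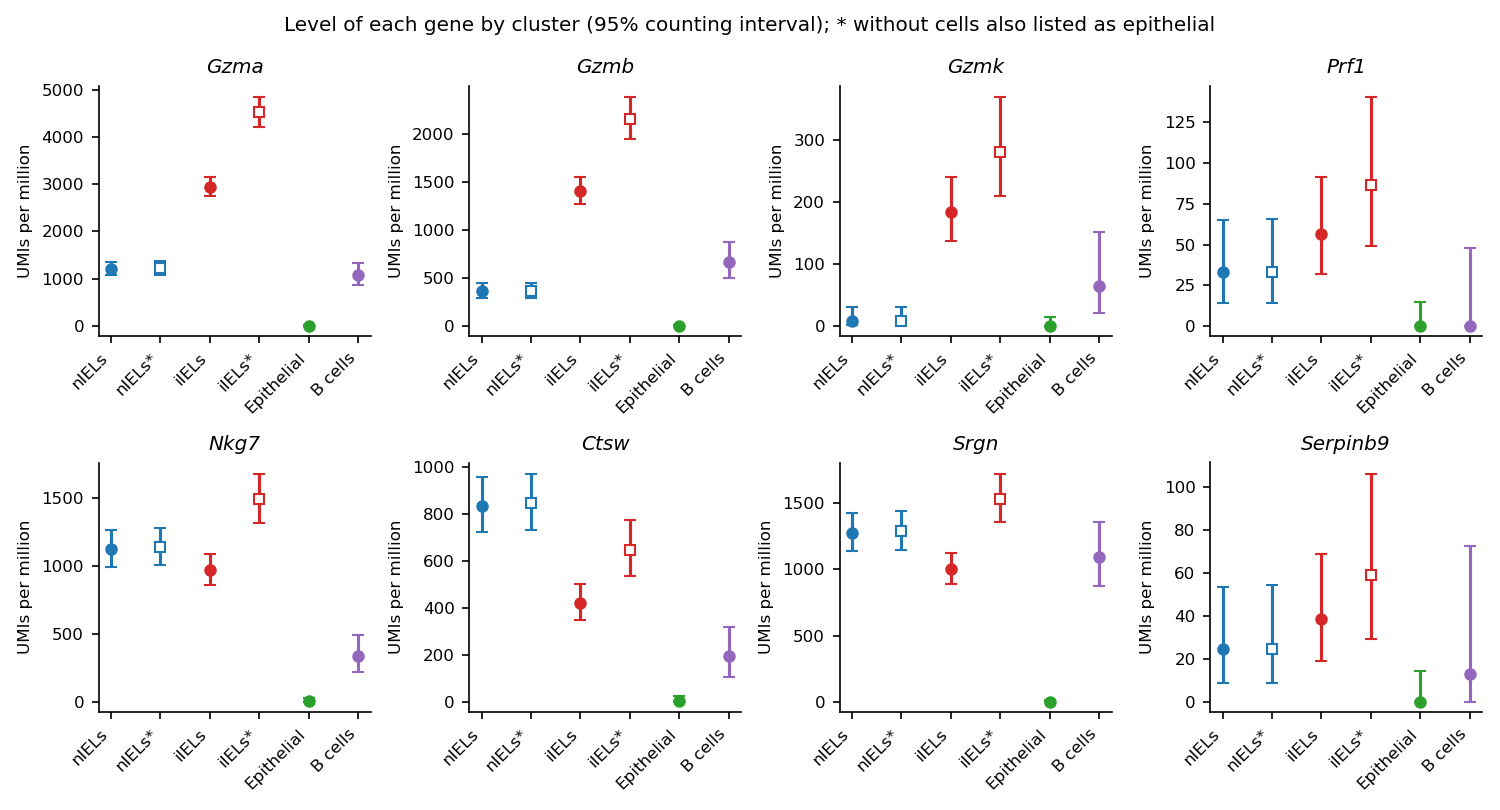
CPM of each of the 8 genes in nIELs, iIELs, epithelial cells and B cells, with 95% counting intervals as bars, where an asterisk marks groups without the 14 cells also listed as epithelial. Gzma and Gzmb were highest in iIELs under both counts, Ctsw was highest in nIELs, and Srgn in B cells (1095) lay between nIELs (1273) and iIELs (1000) with all cells.

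Counted over the set, 7 of the 8 genes had at least 20 UMIs in iIELs and nIELs together, all but Serpinb9. Of these, 3 (Gzma, Gzmb and Gzmk) were at least 2-fold higher in iIELs, where 13.2% of 4189 genes with that many UMIs were, and 0 were at least 2-fold higher in nIELs, where 6.97% of genes were. The median fold of the 7 genes was 1.71, beside 1.01 over all 4189. Without the 14 cells, 4 of the 7 (the same 3 and Prf1) passed in iIELs against a background of 6.20% of 3321 genes, and again 0 passed in nIELs against 5.72%. Their median fold was then 2.59, beside 0.997 over all genes. With all cells Ctsw was just outside the 2-fold limit, at 1.98-fold higher in nIELs, as was Prf1, at 1.71-fold higher in iIELs, and Gzma was just inside, at 2.43. Gzma and Gzmb were among the paper's markers of iIELs. Gzmk, with 52 UMIs in iIELs and 2 in nIELs, reached 20 UMIs through iIELs alone. The counts and median folds of the set are therefore descriptions.

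Set X2 held 16 iIELs and 17 nIELs, too few to read an order of Gzma or Gzmb from it with all cells. Gzma was 1748 CPM (1363 to 2209) in its iIELs and 1196 (766 to 1779) in its nIELs, and Gzmb 1124 (820 to 1504) and 548 (274 to 981), with overlapping intervals for both genes. A single iIEL held 32 of the 45 Gzmb UMIs, and a single nIEL 10 of 11. Without the 14 cells, 13 iIELs of this set remained and the levels were 6350 (4950 to 8023) for Gzma and 4082 (2977 to 5462) for Gzmb. In set X1 without those cells they were 4405 and 2033 in iIELs and 1228 and 350 in nIELs. When IELs were regrouped without the 8 genes and without the 14 cells, the 2 new groups of 168 and 194 cells matched the authors' labels in 241 of 362 cells, with an adjusted Rand index of 0.107. Gzma was 3.98-fold and Gzmb 4.40-fold higher in the group with more iIELs, and Gzmk 3.36-fold. With the 14 cells kept, the same regrouping gave 1.96, 2.41 and 1.86. The groups of 168 and 194 cells also differed in depth, with medians of 810.5 and 1289 UMIs, whose part in these folds was not tested.

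**Figure D3:**
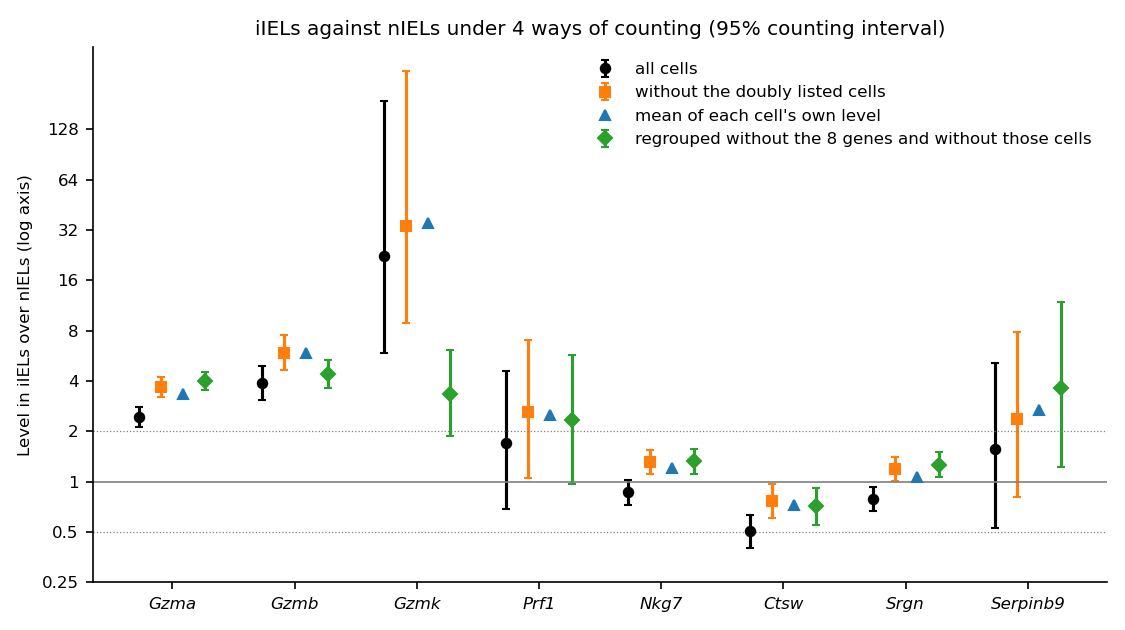
Level in iIELs over nIELs for each gene on a log axis, under 4 ways of counting, where bars are 95% counting intervals and dotted lines mark 2-fold. The 4 ways are all cells, all but the 14 doubly listed cells, the mean of each cell's own level, and the regrouping without the granule genes and those cells. The regrouping compares the new groups of 168 and 194 cells, not the authors' iIELs and nIELs. The regrouping with the 14 cells kept, in which Gzma and Gzmk fell below 2-fold, is not drawn. Gzma, Gzmb and Gzmk stayed above 2-fold in all 4, Ctsw stayed below 1, and Nkg7 (0.864 and 1.31) and Srgn (0.785 and 1.19) crossed 1 when the 14 cells were left out.

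Against epithelial cells, the granule genes were higher in IELs by large factors. All 7 genes with at least 20 UMIs were at least 2-fold higher in IELs, where 23.0% of 5779 genes were. Each of the 7 reached that minimum through the IELs alone, so the count is a description. With 3 UMIs over the cluster set as the floor for a count of 0, Srgn was at least 93.1-fold higher, Gzmb at least 76.5-fold, Gzmk at least 8.48-fold, Prf1 at least 3.77-fold and Serpinb9 at least 2.67-fold. For the 3 genes with epithelial UMIs the ratios were 533 for Gzma (95.5 to 21070), 86.2 for Nkg7 (29.4 to 419) and 76.1 for Ctsw (20.9 to 631). In the subclusters, stem cells held 1 UMI of Nkg7, secretory precursors 1 of Gzma and 1 of Nkg7, and absorptive precursors 2 of Ctsw, 1 of Nkg7 and 1 of Srgn. The subclusters include the 14 cells also listed as IELs, and the Srgn UMI was in 1 of those. No UMI of Gzmb, Gzmk, Prf1 or Serpinb9 was found in any of the 3, so no difference between them was detectable at this depth.

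Gzma and Gzmb were often found in the same cells. Of the 376 IELs, 118 had Gzma, 123 had Gzmb and 91 had both, where 38.6 would be expected if the genes were independent, a ratio of 2.36. Thinned to 700 UMIs the ratio was 2.47, so it was not smaller at matched depth. It held within each cluster as well: 17 nIELs had both genes against 3.39 expected, and 74 iIELs had both against 48.5. Only 11 nIELs and 21 iIELs had Gzmb without Gzma. In the cells listed only as IELs, both granzymes were absent from 153 nIELs and from 59 iIELs.

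**Figure D4:**
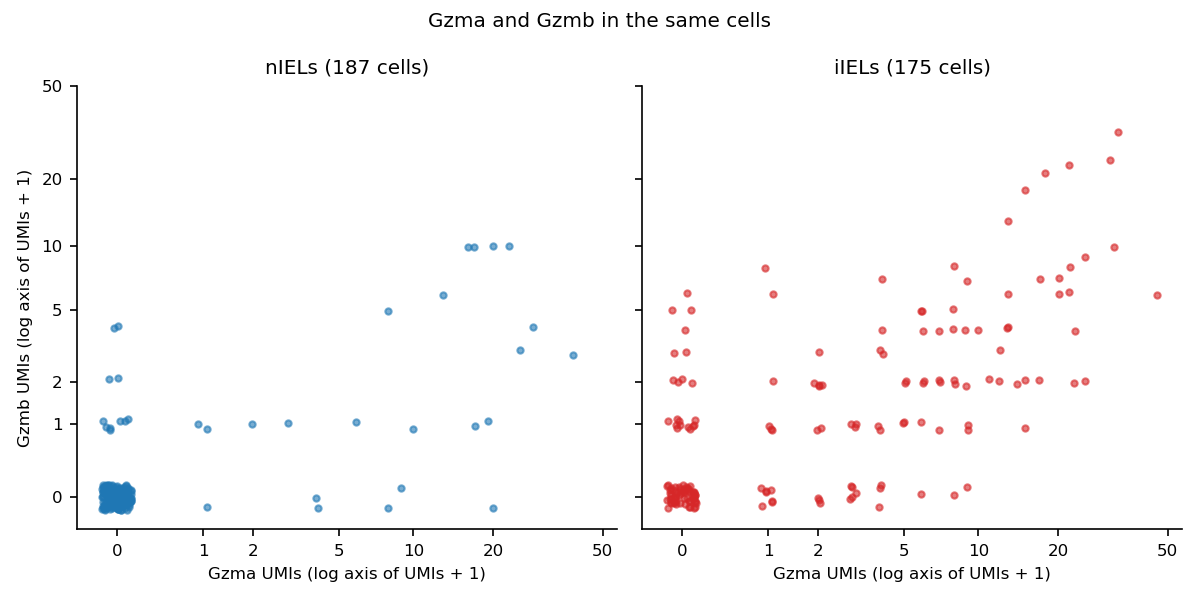
Each point is 1 cell listed only as an IEL, placed by its Gzma and Gzmb UMIs on log axes of UMIs + 1 with jitter, in nIELs (left) and iIELs (right). The 17 nIELs and 74 iIELs with both genes lie off the axes, and 153 nIELs and 59 iIELs sit at 0 for both.

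Over all IELs, other pairs had lower ratios. Gzmb and Gzmk were both found in 26 IELs against 13.7 expected, a ratio of 1.89, but within iIELs in 25 against 20.4. Gzma and Srgn gave a ratio of 1.16, Gzma and Nkg7 1.22, and Gzma and Ctsw 1.01. Srgn had a UMI in 260 of the 376 IELs, Nkg7 in 236 and Ctsw in 189. With partners found in so many cells, these ratios could not rise as far as that of Gzma and Gzmb. Among the 23 nIELs with Gzma, 21 had Nkg7, 21 had Srgn and 15 had Ctsw. Across the 376 IELs the genes most like Gzma by Pearson correlation of log-normalised counts were Gzmb (0.71), Ccl5 (0.50), Itm2b (0.29), Fgl2 (0.28) and Ccl4 (0.26), among 1675 genes with a UMI in at least 10% of the cells. Those most like Gzmb were Gzma, Ccl5 (0.42), Ccl4 (0.28), Fgl2 (0.27) and Ccnd2 (0.26). Ccl5 and Ccl4 are chemokines of activated T and NK cells. For Nkg7 no gene passed 0.30, the first being Tmsb4x (0.298), Abi3 (0.26) and Actb (0.26). Without the 14 cells, Abi3 was first for Nkg7 (0.25) and Tmsb4x was at rank 5 (0.20), among 1540 genes. The cells of these correlations share their libraries and vary in depth, and they are descriptions.

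The IELs with a UMI of Gzma or Gzmb differed from the others in more than these genes, a division added after the data had been seen. Among nIELs listed only as IELs, 34 had such a UMI and 153 had none, at median depths of 1209.5 and 1131 UMIs. Ccl5 was 20721 CPM in the first and 4914 in the second, a ratio of 4.22 (3.85 to 4.62). Tyrobp, an adaptor of activating NK receptors, was 1620 against 557 CPM, or 2.91-fold (2.13 to 3.95), and Nkg7 was 1.89-fold higher (1.44 to 2.46) and Srgn 1.54-fold (1.18 to 1.99). Trbc2, a constant segment of the T cell receptor beta chain, was 1035 against 1687 CPM, lower in the cells with granzymes. Of the other T cell markers, Cd3e was 1.53-fold higher (1.13 to 2.04), while the intervals of Cd8a (1.58), Cd3g (0.931) and Cd3d (0.849) included 1. Cd8b1 had 8 UMIs, none of them in cells with granzymes. Of the other nIEL markers, Cd7 was 1.67-fold higher (1.41 to 1.96) and Klrd1 1.52-fold (1.17 to 1.97), while the interval of Fcer1g (1.32) included 1. The ratio for Ctsw was 1.01 (0.693 to 1.45). Ncr1, an NK receptor, had 7 UMIs in each group, or 157 against 35.8 CPM, a ratio of 4.40 (1.32 to 14.7). Among iIELs, 116 cells had Gzma or Gzmb and 59 had neither, at median depths of 965.5 and 892. There Ccl5 was 1.78-fold higher (1.65 to 1.92), Srgn 1.73-fold (1.29 to 2.34) and Nkg7 1.45-fold (1.09 to 1.94). Klrd1, the CD94 chain of an NK receptor, was 2.67-fold higher (1.53 to 4.97) and Cd7 1.63-fold (1.21 to 2.22). Tyrobp was 4.39-fold higher (1.36 to 22.5), on 3 UMIs in cells without granzymes, while Fcer1g gave 1.06 (0.564 to 2.09). Of the T cell markers, Cd3g was 1.75-fold higher (1.30 to 2.38). The intervals of Cd3e (1.23), Cd3d (1.11), Cd8a (1.04), Trbc2 (0.994) and Cd8b1 (0.918) included 1. Il7r was lower, at 0.455 (0.213 to 0.971).

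Dividing the 362 cells listed only as IELs by genes outside the set separated Gzmk from Gzma and Gzmb. Cd8b1, the beta chain of the CD8 coreceptor, had a UMI in 92 cells, of which 85 were iIELs. Gzmk was 351 CPM in these and 55.8 in the other 270 cells, a ratio of 6.29 (3.48 to 11.8), or 3.32 thinned to 700 UMIs. Within iIELs it was still 2.40-fold higher with Cd8b1 (1.30 to 4.63), and 1.39-fold thinned. Gzma went with Cd8b1 over all IELs, at 3170 against 2498 CPM or 1.27-fold (1.11 to 1.45), but within iIELs the order turned, at 3625 with and 5360 without Cd8b1, a ratio of 0.676 (0.587 to 0.779). Gzmb gave 1.75 (1.44 to 2.11) over all IELs and 0.824 (0.672 to 1.01) within iIELs. The 7 nIELs with Cd8b1 had no UMI of Gzma, Gzmb or Gzmk. These divisions within a cluster were added after the values over all IELs had been seen. The paper showed Cd8b1, like Gzma and Gzmb, among its markers of iIELs, and Klrd1 and Fcer1g among those of nIELs. Both sides of these ratios thus include marker genes of the clusters, so ratios within a cluster are descriptions. The part of the cluster calling in them was not tested.

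Klrd1, Fcer1g and the T cell receptor gamma constant segments (Tcrg-C1, Tcrg-C2 and Tcrg-C4) gave small differences of Gzma over all IELs. Differences within each cluster were larger, where Klrd1 and Fcer1g, as markers of nIELs in the paper, are not independent of the cluster labels. With Klrd1 the Gzma level was 1.15-fold that without over all IELs (1.02 to 1.30). Within nIELs it was 1512 against 366 CPM, or 4.14-fold (2.68 to 6.71), and within iIELs 6385 against 3489, or 1.83-fold (1.59 to 2.10). Gzmb was 3.87-fold (1.80 to 9.93) and 2.01-fold (1.64 to 2.46) higher with Klrd1 in the same 2 clusters.

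Fcer1g, a signalling adaptor of natural IELs and NK cells, gave 0.958 for Gzma over all IELs (0.848 to 1.08), but 2.09 (1.59 to 2.77) within nIELs and 1.99 (1.70 to 2.32) within iIELs. For the gamma segments the Gzma ratio was 1.04 over all IELs (0.919 to 1.19), 2.93 (1.89 to 4.75) within nIELs and 1.43 (1.24 to 1.65) within iIELs. A UMI of Klrd1 was present in 128 of 187 nIELs and 53 of 175 iIELs, and one of Fcer1g in 101 and 26, so the cluster with less Gzma held more of the cells with these genes. The share of nIELs with a Gzma UMI differed less than the level, at 14.1% with Klrd1 and 8.47% without, and 6 nIELs carried at least 50% of the UMIs. Thinned to 700 UMIs, the Gzma ratio for Klrd1 was 2.79 in nIELs and 1.77 in iIELs. Cells with a UMI of these genes were the deeper ones among nIELs, with medians of 1272 against 958 UMIs for Klrd1.

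Gzmk and Ctsw showed other patterns. Gzmk was 17.3 CPM in the 127 IELs with Fcer1g and 202 in the other 235, so that it was 11.7-fold higher (3.78 to 58.5) without Fcer1g, on 3 UMIs in cells with it. Within iIELs it was 4.65-fold higher without Fcer1g (1.22 to 39.4), on 2 UMIs. Ctsw was higher with Fcer1g over all IELs, at 999 against 595 CPM or 1.68-fold (1.34 to 2.10), and within nIELs at 1.83-fold (1.33 to 2.55), while within iIELs the ratio was 1.34 (0.822 to 2.12). Cd4 had a UMI in 2 of the 362 cells, too few for a comparison.

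**Figure D5:**
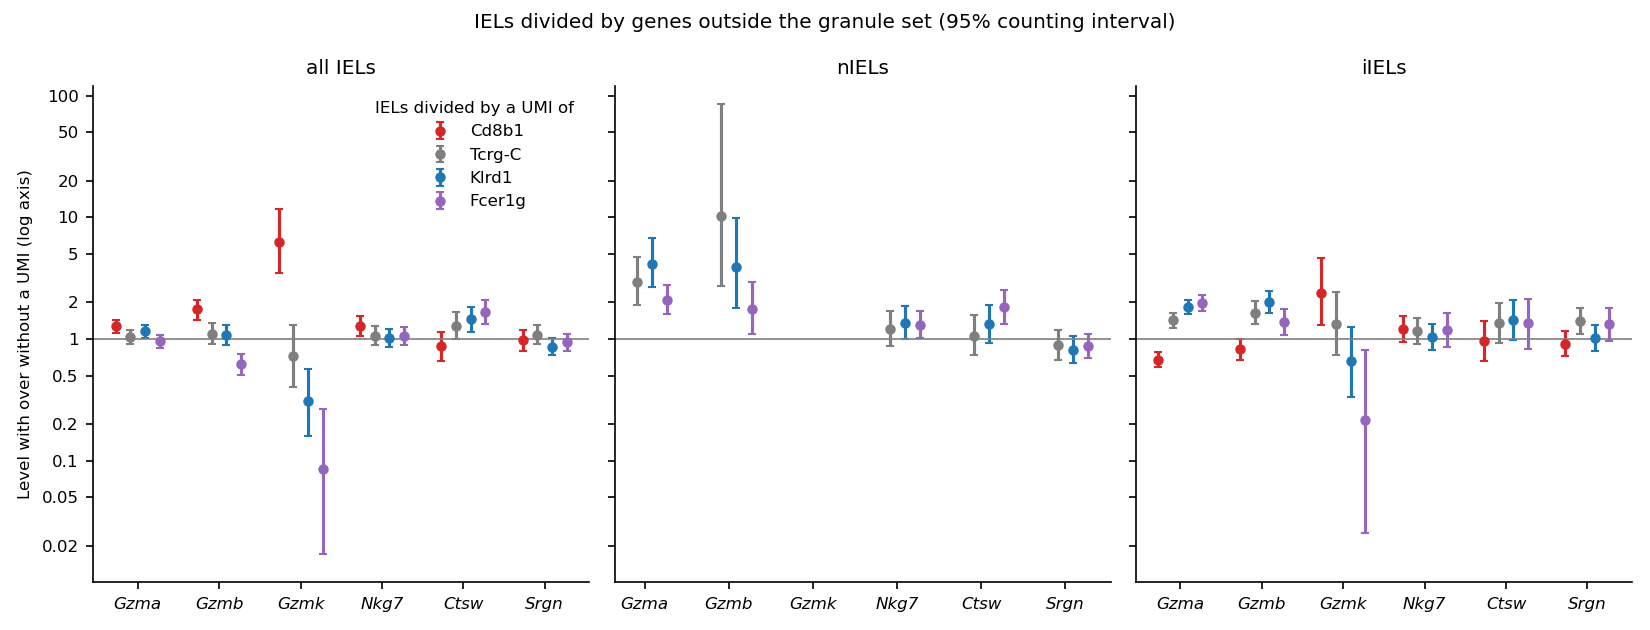
Level with over without a UMI of Cd8b1, Tcrg-C, Klrd1 or Fcer1g on a log axis with 95% counting intervals, over the 362 cells listed only as IELs (left), 187 nIELs (middle) and 175 iIELs (right). Ratios are drawn where both sides had a UMI and at least 20 UMIs were counted, and not for Cd8b1 in nIELs. Gzma for Klrd1 went from 1.15 over all IELs to 4.14 in nIELs and 1.83 in iIELs, while Gzmk lay at 6.29 for Cd8b1 and 0.0856 for Fcer1g over all IELs. Cd8b1 was among the paper's markers of iIELs, and Klrd1 and Fcer1g among those of nIELs.

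The B cell cluster held granzyme UMIs in a few cells that also held T cell RNA. Of its 47 cells, 10 had a UMI of Gzma or Gzmb, and 7 of these 10 had a UMI of Cd3d, Cd3e or Cd3g, against 4 of the other 37. The 11 cells with a CD3 UMI carried 80 of the 83 Gzma UMIs, 49 of the 51 Gzmb UMIs and 24 of the 26 Nkg7 UMIs. Srgn was spread differently, with 55 of its 84 UMIs in the 36 cells without CD3. All 10 granzyme cells had a UMI of Cd74, the invariant chain of B cells and other antigen-presenting cells, and their median depth was 2067.5 UMIs against 1361 in the other 37. The 6 T cell markers summed to 1656 CPM in this cluster, where none of them was at 0. Markers of macrophages and dendritic cells (Lyz2, Csf1r, Aif1, Cd68 and Itgax) summed to 978, with none at 0. The part of RNA or cells of these types in the B cell values was not tested. All granzyme UMIs of the cluster were in set X1, and the 5 B cells of set X2 had none.

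Of 42 further genes of the granule pathway, 33 had a row and the other 9, among them Gzmd to Gzmg and Gzmm, are not analysed here. Between iIELs and nIELs listed only as IELs, 15 had at least 20 UMIs, of which 1 was at least 2-fold higher in iIELs (Fasl), beside 6.20% of all genes, 2 were at least 2-fold higher in nIELs (Gzmc and Igf2r), beside 5.72%, and 12 were within 2-fold. With all cells the counts were 4, 2 and 15 of 21, beside 13.2% of all genes for the first and 6.97% for the second, since Serpinb6a, Serpinb1a and Rab27a joined Fasl; of the 52 iIEL UMIs of Serpinb6a and the 36 of Serpinb1a, 7 and 2 were in cells listed only as IELs. The ratio of nIELs to iIELs was 2.62 for Gzmc (0.929 to 9.09) and 3.21 for Igf2r (1.29 to 9.58). Igf2r and Rab27a were named after their values were seen.

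Gzmc, a granzyme of the Gzmb cluster on chromosome 14, had 17 UMIs in 4 nIELs and 5 UMIs in 1 iIEL, and none in B or epithelial cells. How reads shared by these related genes were assigned is not given in the sources used here. Among maturation and sorting genes, Cst7, the cystatin that inhibits the cathepsin activating granzymes, was 259 CPM (191 to 344) in iIELs and 150 (105 to 208) in nIELs listed only as IELs, and had no UMI in epithelial cells. Ctsc, the dipeptidyl peptidase that activates granzymes, was 108 in iIELs, 129 in nIELs and 56.4 in epithelial cells. M6pr, a sorting receptor, was 108, 183 and 76.5. Of the transport and release genes, Lamp1, Vamp8 and Stxbp2 were found in epithelial cells too, at 250 (191 to 320), 213 (160 to 279) and 56.4 CPM, against 81.0, 91.8 and 59.4 in iIELs and 154, 137 and 62.5 in nIELs.

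Among the inhibitors, Serpinb6b had 35 UMIs in IELs and 2 in epithelial cells, a ratio of 8.25 (2.12 to 70.8), while Serpinb6a and Serpinb1a were higher in epithelial cells. With all IELs the folds were 3.04 (2.16 to 4.30) for Serpinb6a and 2.18 (1.35 to 3.52) for Serpinb1a, where most of the IEL UMIs came from the 14 cells. Without those cells, and with 15 and 3 UMIs left in IELs, they were 9.82 (5.63 to 18.3) and 21.7 (6.88 to 109.8). Among other effectors, Fasl, the death ligand of killer cells, had 20 UMIs in iIELs and 6 in nIELs, a 4.32-fold difference in level (1.67 to 13.1). Tnfsf10, the ligand TRAIL, was 151 and 100.0, a ratio of 1.51 (0.845 to 2.73), and Ifng had 9 UMIs in iIELs and 3 in nIELs. Of the granzyme substrates, Set was 1.36-fold higher in nIELs (0.935 to 1.995) and Dffa had 7 UMIs in all IELs. Of the regulators, Runx3, a transcription factor of CD8 T cells, was 329 CPM in iIELs and 262 in nIELs with no UMI in epithelial cells. Tbx21 had 12 UMIs in iIELs and 14 in nIELs, and Prdm1 4 and 3. Stx11, a syntaxin of granule fusion, had 6 UMIs in nIELs and none in iIELs, and Ctsh had none in either cluster once the 14 cells were left out.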

How the data were processed

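RNA of single mouse colon cells was captured by Drop-seq, and the authors made a table of UMIs after alignment to a mixed mouse and human reference (mm10, hg19). The submitters' processing notes name STAR 2.5.0 and Picard 1.137. The counts deposited by the authors are whole numbers and were not normalized. Clusters were those of the authors' cell lists. The 2 pools and the sorts could not be told apart in the table, which was 1 sample, so no p-values were computed. UMIs were summed per cluster and divided by its total, with Python 3.11.15, numpy 2.4.6, scipy 1.17.1, pandas 2.3.3 and scanpy 1.11.5. Folds were called at 2 or more with at least 20 UMIs. The folds and their intervals were checked on simulated independent counts, in which UMIs did not gather in few cells. The 2-fold call itself was not checked. A count of 0 was set to a floor of 3 UMIs over the cluster. Shares were repeated with cells thinned to 700 UMIs (100 draws). Regrouping used k-means on 5 components of 1000 genes. Scrublet marked 0 cells, which was taken as a failed call, so doublets were not removed. All 8 genes were named, together with the 3 genes of each pathway subgroup with the most UMIs, those at 0, and the 5 genes most like Gzma, Gzmb and Nkg7. One gene of the substrate subgroup is not reported here. Genes and lists were chosen with earlier results of these data known. Promoters are from RefSeq (GRCm38.p6), gene positions from GENCODE M21.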

Additional observations from a re-analysis of the deposited data

Results flagged for a closer look

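Granule genes were also counted in the 601 barcodes that the authors placed in no cluster, which the comparisons above do not use, at levels above those of epithelial cells. Gzma was 1124 CPM there, Gzmb 355, Gzmk 40.8, Prf1 23.3, Nkg7 431, Ctsw 169 and Srgn 413. A UMI of Gzma or Gzmb was present in 80 of these barcodes, whose median depth was 266 UMIs, and 5 of the 80 differed by 1 base from an assigned barcode. The 601 barcodes had a median depth of 212 UMIs and 36.8% mitochondrial UMIs, against 3.83% in assigned cells. In them the 6 T cell markers summed to 2090 CPM and the 4 epithelial markers to 6388, and the part of RNA or cells of these types in the values was not tested.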

How the results depend on the processing

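The fold of iIELs over nIELs kept its direction for Gzma, Gzmb, Gzmk and Ctsw under every alternative that gave a value, with ranges of 1.46 to 5.31, 2.05 to 7.45, 1.86 to 35.1 and 0.251 to 0.910. The ratio of Prf1 was 0 in set X2, where iIELs had no UMI of it. That of Srgn reversed from 0.785 to 1.07 with levels averaged over cells, 1.19 without the 14 doubly listed cells, also within set X1, and 1.26 when regrouped without the granule genes and those cells. The number of granule genes at least 2-fold higher in iIELs, 3 with all cells, was 1 in set X2 alone and 1 when regrouped with the 14 cells kept. The number lower went from 0 to 1 in set X2 alone and without mitochondrial and ribosomal genes in the totals. Against epithelial cells, 4 passed in set X2. The share of all genes higher in iIELs, 13.2%, rose to 32.7% with a minimum of 1 UMI and 23.3% at 1.5-fold, and the share higher in nIELs, 6.97%, became 21.9%, 17.95%, 4.63% with a minimum of 50 UMIs and 12.8% when called by the counting interval. Against epithelial cells, 23.0% became 36.9% with a minimum of 1 UMI. Of the 5 genes most like Gzmb and Nkg7, 3 each remained after thinning, and 2 and 1 of those found without the 14 cells. Ratios of cells with over without a dividing gene reversed as follows. Without the 14 cells they became 0.97 for Cd8b1 and Srgn, 0.86 for Klrd1 and Srgn, 0.96 for Fcer1g and Gzma and 0.94 for Fcer1g and Srgn. Within iIELs they became 0.68, 0.82 and 0.92 for Cd8b1 with Gzma, Gzmb and Srgn. Within the 7 nIELs with Cd8b1 they became 0 for Gzma, Gzmb and Gzmk, 0.81 for Nkg7 and 0.53 for Srgn. Within nIELs the Srgn ratio became 0.89 for Tcrg-C, 0.81 for Klrd1 and 0.88 for Fcer1g. The cause was not tested. No paired analysis was possible because the table was 1 sample. Alternatives for both sets without the 14 cells, for the serpins and within clusters were chosen after seeing the data.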
